A study of Homo sapiens with 7 samples.

Results

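The genes described here license and copy DNA in S phase. They are the 6 subunits of the MCM2 to MCM7 helicase, the loading factors ORC1, CDC6 and CDT1, and the polymerase clamp PCNA. These 10 genes were named by function and mapped by symbol to the gene identifiers of the count tables. All 10 were found, among 62238 genes counted, and all 10 passed the minimum summed count of 30 reads, among 24887 genes tested. RNA of these genes was measured in MEG-01, an established megakaryoblastic cell line from a human leukemia. The cells were grown in RPMI1640 with 10% FBS, harvested in exponential phase at passage 5, and every sample is labelled as carrying a lentiviral transgene. The control RNA-seq library was made from cells whose labels name no knockdown. The other 2 RNA-seq libraries came from a line with shRBM15#1 and a line with shRBM15#2, each a stable line depleted of RBM15, an RNA-binding protein of the spen family. RNA immunoprecipitation with sequencing (RIP-seq) was also done in MEG-01 cells, and 1 normal IgG library and 1 anti-RBM15 library are compared here.

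Before S phase, the origin recognition complex, of which ORC1 is a subunit, marks DNA where replication can start. CDC6 and CDT1 then load the MCM2 to MCM7 ring onto it, a step called licensing, and in S phase the ring opens the double helix while PCNA holds the polymerases on the template. Most of these genes are textbook targets of the E2F transcription factors, so their RNA is commonly read as a sign of proliferation. Replication-dependent histones, which package the new DNA, are also made in S phase.

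The RNA-seq libraries held 53230029 reads on exon bins in control, 41629454 in shRBM15#1 and 52458857 in shRBM15#2. Another 23.2%, 32.0% and 23.5% of the reads fell on lines that name no gene. The targeted gene RBM15 had 3970 reads in control, 1957 in shRBM15#1 and 2121 in shRBM15#2. As CPM, the read count scaled to the size of the library with TMM factors, this was 80.2, 43.7 and 40.7, a log2 fold change of -0.93 ± 0.23 (SE) with an adjusted p of 0.0908 (edgeR quasi-likelihood test, Benjamini-Hochberg over all genes tested). Both knockdown lines were thus below the control in RBM15 RNA, but the gene was not called at the limit of 0.01. With 1 control library, the spread in every test comes from the 2 knockdown lines, and the fit shares it in part over all genes. The SE of the genes described here thus ran only from 0.218 to 0.243. A p-value measures the spread of the 2 lines alone. The knockdown cannot be told apart from any other difference of that control culture. The megakaryocyte markers were mixed, with 3 of 6 tested higher and 3 lower, and summed to 1004, 568 and 785 CPM. ITGA2B had 919, 476 and 607 CPM, ITGB3 6.29, 17.9 and 51.8 CPM and PPBP 2.39, 6.12 and 56.9 CPM, and PF4 and GP9 did not pass the minimum. The 6 erythroid markers were all higher, and their summed level went from 883 CPM in control to 4211 and 4164 CPM, with 3 of 6 called. Summed levels were 39.0, 34.6 and 63.7 CPM for 4 of 5 myeloid markers, as ELANE was not tested. They were 3.48, 2.79 and 2.82 CPM for 3 T cell markers and 1.42, 3.04 and 1.82 CPM for 3 B cell markers. The 4 fibroblast and epithelial markers summed to 133, 101 and 93.7 CPM. None of these markers was at 0 reads in any library. In bulk RNA, fewer cells in S phase and less RNA per cell cannot be told apart, and the part of the erythroid rise in any result below was not tested.

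RBM15 knockdown was compared with control to ask whether RNA of the licensing genes moved with RBM15. CDT1, the licensing factor that is destroyed once S phase starts, was the member that differed most, at 0.410 of its control level. MCM4 was the highest, at 1.63 times its control level (with the trend of fold change with length, GC content and expression removed, PCNA was the highest, at a log2 value of 0.857 against 0.652), and the other 8 genes lay between 0.754 and 1.35 times. At an adjusted p under 0.01, 0 of the 10 genes were called, beside 86 of all 24887 genes (0.346%). At an unadjusted p under 0.05 there were 2 members, CDT1 and MCM4, beside 18.8% of all genes, and this count was 5 under upper-quartile factors, 4 with a minimum summed count of 300 and 1 with a minimum of 1. At an adjusted p under 0.05, CDT1 was the 1 member that passed (adjusted p = 0.038, edgeR quasi-likelihood test), beside 1.74% of all genes, and DESeq2 gave CDT1 an adjusted p of 0.00383, within a range of 0.00129 to 0.0605 over the alternatives tried. The adjusted p of MCM4 ranged from 0.0476 under upper-quartile factors, where it passed as well, to 0.436. The median log2 fold change of the 10 genes was 0.044, beside 0.017 for all genes tested. Both knockdown lines lay above the control for 5 members and below it for 4, and for MCM2 they lay on both sides. Among all genes, 79.3% had both lines on 1 side of the control, so this count is near what the whole table shows.

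**Figure D1:**
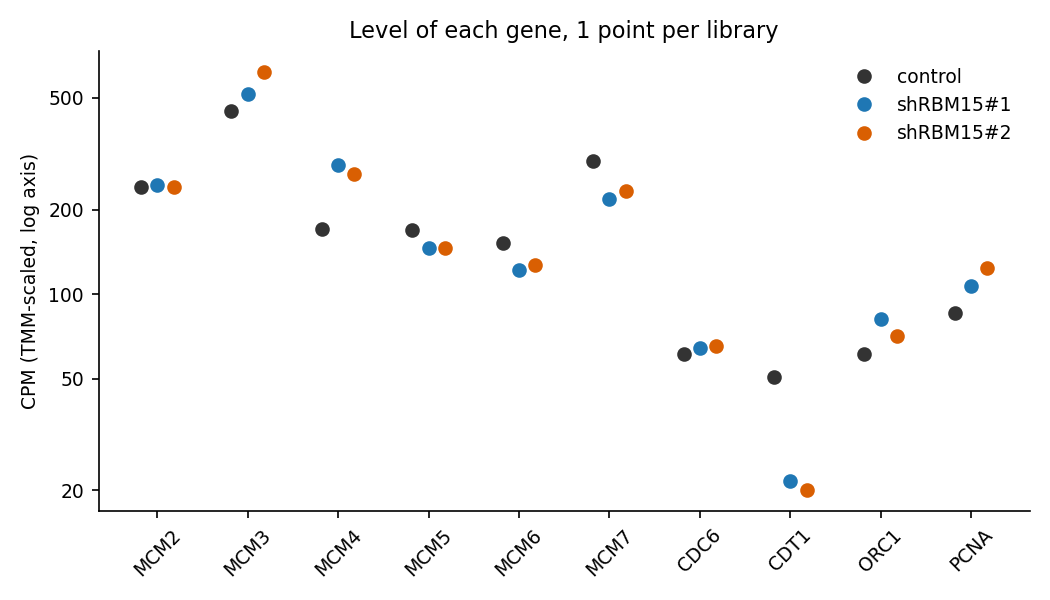
Level of each gene in CPM on a log axis, 1 point per library for control, shRBM15#1 and shRBM15#2. CDT1 goes from 50.7 CPM in control to 21.5 and 20.1 CPM, MCM4 from 171 to 287 and 268 CPM, and the points of MCM2 lie within 241 to 244 CPM.

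ORC1, the largest subunit of the origin recognition complex, lies on chromosome 1 from 52838501 to 52870131 on the minus strand (GRCh37, as are all positions of genes and exon bins). It had 61.3 CPM in control, 81.7 in shRBM15#1 and 71.2 in shRBM15#2. Both lines were above the control, and the log2 fold change of 0.32 ± 0.23 (SE, adjusted p = 0.501, edgeR) did not pass. CDC6, the ATPase that helps place the MCM ring, lies on chromosome 17 from 38443885 to 38459171 on the plus strand. Its level was 61.1, 64.2 and 65.2 CPM, which is nearly the same in every library, with a log2 fold change of 0.08 ± 0.23 (SE).

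CDT1 lies on chromosome 16 from 88869621 to 88875666 on the plus strand and is the most GC-rich of the members, with 64.9% GC over its exon bins. It had 2509 reads in control, 962 in shRBM15#1 and 1046 in shRBM15#2, which is 50.7, 21.5 and 20.1 CPM. The lines differed from each other by 1.07 times, and lay at 0.424 and 0.395 of the control level. The fitted log2 fold change was -1.29 ± 0.24 (SE). It lay in the lowest 3.04% of all genes tested. Fold changes in these libraries moved with exonic length, GC content and expression, and with that trend removed the value for CDT1 was -1.005 (a value with no test).

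The subunits of the MCM ring lay on both sides of the control, and a difference between subunits was not tested. MCM3 and MCM4 lay above the control in both lines, MCM5, MCM6 and MCM7 lay below it, and MCM2 was level, although none of the 6 passed at 0.01. MCM2, a subunit that also binds histones, lies on chromosome 3 from 127317066 to 127341276 on the plus strand. It had 242, 244 and 241 CPM, and its log2 fold change was 0.01 ± 0.22 (SE). MCM3 lies on chromosome 6 from 52128807 to 52149679 on the minus strand and was the most abundant member per kilobase. It had 450 CPM in control, 518 in shRBM15#1 and 621 in shRBM15#2, a log2 fold change of 0.34 ± 0.23 (SE, adjusted p = 0.472, edgeR). Here the lines differed from each other by 1.198 times, more than they did for CDT1 or MCM4.

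MCM4, which forms the core of the helicase with MCM6 and MCM7, lies on chromosome 8 from 48872745 to 48890720 on the plus strand. It had 8456, 12868 and 13983 reads, which is 171 CPM in control, 287 in shRBM15#1 and 268 in shRBM15#2. The 2 lines were within 1.07 times of each other, and the log2 fold change was 0.70 ± 0.23 (SE) with an unadjusted p of 0.0138 and an adjusted p of 0.168 (edgeR). MCM6, on chromosome 2 from 136597196 to 136633996 on the minus strand, had 152, 122 and 127 CPM, a log2 fold change of -0.29 ± 0.22 (SE, adjusted p = 0.517, edgeR). MCM7, on chromosome 7 from 99690351 to 99699563 on the minus strand, had 299, 218 and 233 CPM, a log2 fold change of -0.41 ± 0.22 (SE, adjusted p = 0.35, edgeR). In both lines MCM4 lay above the control and its core partners MCM6 and MCM7 below it, although none of these passed at an adjusted p under 0.01. Among all genes, 79.3% had both lines on 1 side of the control. MCM5, the partner of MCM2 at the gate of the ring, lies on chromosome 22 from 35796056 to 35821423 on the plus strand. It had 169 CPM in control and 146 in each line, a log2 fold change of -0.21 ± 0.22 (SE, adjusted p = 0.65, edgeR).

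PCNA lies on chromosome 20 from 5095599 to 5107272 on the minus strand. It had 85.5 CPM in control, 107 in shRBM15#1 and 123 in shRBM15#2. Both lines were above the control, with a log2 fold change of 0.43 ± 0.23 (SE, adjusted p = 0.354, edgeR). With the trend of fold change with length, GC content and expression removed, the value for PCNA, the member with the shortest exonic length, was 0.86 (no test). PCNA and ORC1 have processed pseudogenes in the annotation, and the sources used here do not say how reads that match several places were counted. Reads were counted without strand, and bins that overlap another gene were 1 of 33 in MCM2 (with TPRA1) and 1 of 41 in MCM7 (with AP4M1), each holding at most 0.0586% of the reads of the gene.

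**Figure D2:**
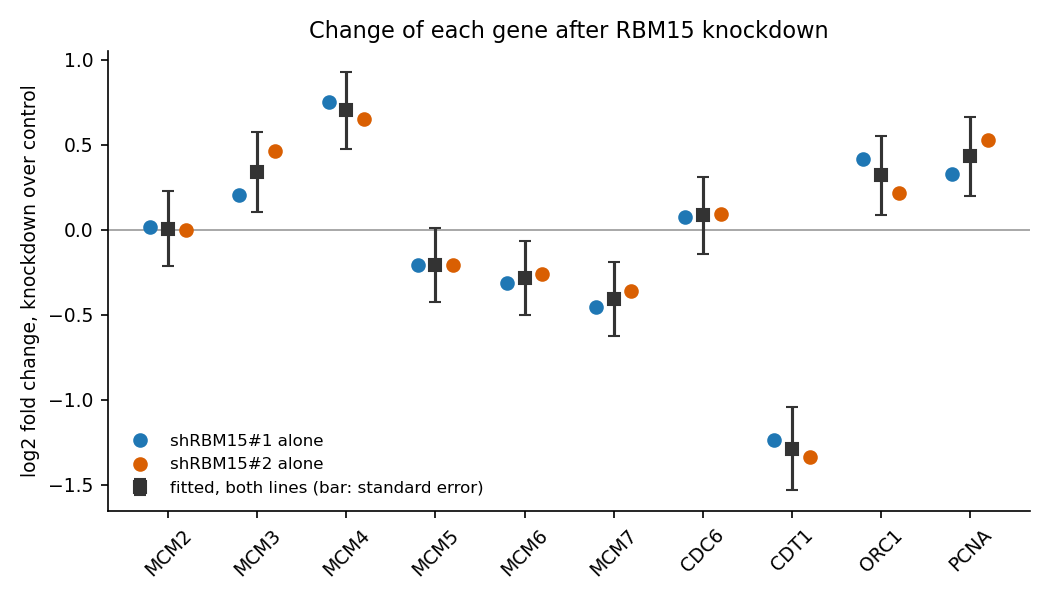
Log2 fold change of each gene, knockdown over control, as fitted over both lines with its standard error as the bar (black squares) and for each line alone (circles). CDT1 is at -1.29, MCM4 at 0.70, and the bars of MCM2, MCM5 and CDC6 reach 0.

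Levels can be compared between genes only per length, here as CPM per kilobase of exon bins. In control, MCM3 had 123 CPM per kilobase, MCM7 68.2, PCNA 58.1, MCM2 49.3, MCM6 36.8, MCM4 25.04, MCM5 24.93, ORC1 19.4, CDC6 18.1 and CDT1 15.2. Over all bins, MCM4 and MCM5 were nearly equal in control. In the knockdown lines MCM4 had 42.1 and 39.3 CPM per kilobase and MCM5 had 21.5 and 21.6. MCM3 was the highest and CDT1 the lowest of the 10 in all 3 libraries. As a share of the summed per-kilobase level of the 6 MCM subunits, MCM3 made up 37.7% in control, 42.4% in shRBM15#1 and 46.7% in shRBM15#2. The share of MCM7 was 20.8%, 14.8% and 14.6%, and that of MCM4 was 7.64%, 12.6% and 10.8%. A read that spans several exon bins was counted in each, which raises genes with many short bins. With only bins of at least 300 bases, an alternative chosen after seeing the data, MCM3 was still the highest, with 60.1%, 63.8% and 69.4% of the ring. CDT1 was eighth of the members in control. There MCM4 and MCM5 were no longer nearly equal in control, at 8.67 and 4.24 CPM per kilobase. The share of MCM7 was then 12.45%, 8.02% and 7.8%.

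The exon bins of a gene give further readings of the same libraries. Of the 279 bins of the 10 genes, 261 could be tested for a change in usage relative to the rest of the gene. Past the limits of an unadjusted p under 0.05 and a fold over 1.2 were 2 of the 261 bins (0.766%), beside 1.45% of all 234192 bins tested. At an adjusted p under 0.05 there were 0 of these bins (edgeR diffSpliceDGE), beside 0.0205% of all bins. All 15 bins of CDT1 were lower in the knockdown, with bin log2 fold changes from -1.64 to -1.04, and all 7 tested bins of PCNA were higher, from 0.34 to 0.57. In MCM4, 48 of 50 bins were higher, and in MCM7, 35 of 36 were lower. Bins of 1 gene come from the same libraries and share reads, so they are no replicates.

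The bin past the limits in MCM3 is a stretch of 151 bases from 52130033 to 52130183, inside intron 16 of 17 exons in the MANE transcript. It had 256 reads in control, 156 in shRBM15#1 and 221 in shRBM15#2, which was 1.15%, 0.673% and 0.683% of the reads on the tested bins of MCM3. Its share was lower in both lines, with a relative log2 fold change of -0.76 and an unadjusted p of 0.00571. The bin in MCM4 spans 17 bases in intron 12 and had 30, 26 and 22 reads, a relative log2 fold change of -0.99 with an unadjusted p of 0.0424. In the other genes the bin with the smallest p did not pass. In MCM2 and CDC6 these were the intronic bins 24 and 6, in MCM5 and ORC1 bins 37 and 2 in the 3′UTR, in MCM6 and MCM7 bins 21 and 40 in the first exon, and in CDT1 and PCNA the coding bins 10 and 4. Their unadjusted p-values in diffSpliceDGE ran from 0.107 in ORC1 to 0.591 in PCNA.

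**Figure D3:**
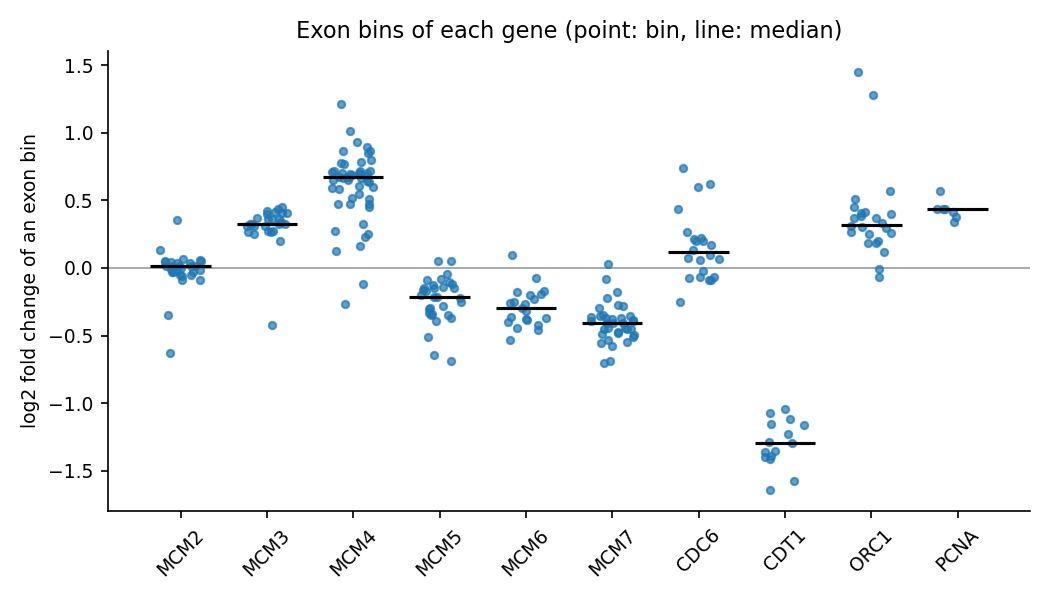
Log2 fold change, knockdown over control, of each tested exon bin (points, spread sideways for sight) with the median of each gene (line). The 15 bins of CDT1 lie between -1.64 and -1.04, and the median bin of MCM4 is at 0.67.

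E2F factors are known to act on this group through sites in the promoters, so 3 promoters are printed here, of genes that differed in direction. For 8 of the 10 genes, RefSeq promoter sequences (GRCh38.p14) were matched by symbol. The 250 bases before the start were searched on both strands for TTTCCCGC, TTTCGCGC, TTTGCCGC and TTTGGCGC. The 8 genes have 11 entries. Of the 8 genes, 5 held at least 1 match in 1 entry (CDT1, PCNA, MCM3, MCM6 and MCM7), and the further entries of PCNA and MCM7 held none. Of all 35116 promoter entries, 2.79% held a match, a share counted by entry and not by gene. None of the 4 was found in this window of ORC1, CDC6 or MCM2. MCM6 held 4 matches, which are 2 overlapping pairs in which TTTGGCGC on 1 strand shares bases with TTTCGCGC on the other. The 3 printed entries, of CDT1 (lower after knockdown), PCNA (above the control) and MCM6 (below it), each held a match. They were picked for their unlike directions, and PCNA and MCM6 did not pass at an adjusted p under 0.05. A link between a match and a direction was not tested. PCNA also has an entry further downstream, at chr20:5119959-5120208, with 0 matches. The most 5′ exon bin of PCNA did not reach the summed minimum of 30 reads. The next bin, bin 7, had 194 reads in control, 206 in shRBM15#1 and 292 in shRBM15#2. Which start these cells use was not tested. Capitals mark the matches, and the sequences run 5′ to 3′ on the strand of the gene, at chr16:88803539-88803788 (plus), chr20:5126623-5126872 (minus) and chr2:135876444-135876693 (minus) of GRCh38.p14.
CDT1: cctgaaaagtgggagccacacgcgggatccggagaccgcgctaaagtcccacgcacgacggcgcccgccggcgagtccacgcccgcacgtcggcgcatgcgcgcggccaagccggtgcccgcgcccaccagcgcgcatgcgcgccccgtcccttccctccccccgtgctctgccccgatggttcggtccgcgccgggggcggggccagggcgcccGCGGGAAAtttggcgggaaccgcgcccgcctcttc
PCNA: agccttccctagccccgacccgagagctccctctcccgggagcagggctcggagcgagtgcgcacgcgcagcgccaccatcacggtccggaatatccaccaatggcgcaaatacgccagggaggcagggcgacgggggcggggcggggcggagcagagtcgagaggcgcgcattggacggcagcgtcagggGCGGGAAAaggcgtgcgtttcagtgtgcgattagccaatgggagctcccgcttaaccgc
MCM6: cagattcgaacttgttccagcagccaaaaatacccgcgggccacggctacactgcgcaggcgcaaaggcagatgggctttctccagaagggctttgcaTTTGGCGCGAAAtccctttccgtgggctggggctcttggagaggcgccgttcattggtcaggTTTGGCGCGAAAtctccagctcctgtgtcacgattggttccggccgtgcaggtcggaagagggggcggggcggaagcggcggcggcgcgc

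RIP-seq was used to ask which RNAs RBM15 is bound to. The deposited list holds 1515 sites, all with more reads in the RBM15 samples and past the authors' filter, so a gene without a site may have had a peak that is not listed. Of the 10 genes, 3 had a listed site (MCM2, MCM3 and MCM6), with 4 sites in all, beside 909 of 24275 tested genes with a symbol (3.74%). Highly expressed genes were listed more often, with 18.9% in the top 10% by expression, and 7 of the 10 genes, with all 3 of these, fall in that class. MCM4, MCM5, MCM7, PCNA, CDC6, ORC1 and CDT1 had no listed site. The genes with a site were 1 that lay above the control after knockdown (MCM3), 1 below (MCM6) and 1 level (MCM2).

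The MCM3 site lies in the 3′UTR of its last exon, exon 17, on chromosome 6 from 52128885 to 52129382 on the minus strand. It held 5501 anti-RBM15 reads against 130 with normal IgG, and the former count was at percentile 99.3 of all listed sites. The MCM2 site in the 3′UTR, on chromosome 3 from 127340707 to 127341192, held 623 reads against 15. The MCM6 site in the 3′UTR, on chromosome 2 from 136598071 to 136598353, held 556 reads against 11. A further MCM2 site, in intron 12 on chromosome 3 from 127337066 to 127337652, held 131 reads against 2. In reads, the ratio of anti-RBM15 to normal IgG was 42.3 at MCM3, 41.5 at the 3′UTR of MCM2 and 50.5 at MCM6, beside a median of 31.3 over the 1463 listed sites with a read in the normal IgG library. With 1 library for each antibody there is no test, and the depth of these libraries is unknown, so the ratios are not scaled.

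The intronic MCM2 site is the only member site outside a 3′UTR, and its central 300 bases are shown with 30 bases of each 3′UTR site (GRCh37, 5′ to 3′ on the strand of the gene). Capitals mark GGACT, the core of a common m6A context, searched because RBM15 is known to bring the m6A writer to RNA. The 30 bases are the middle of the 3′UTR sites of MCM2 and MCM6, but in MCM3 they were centred on the GGACT match. The positions are chr3:127337210-127337509 (plus), chr3:127340935-127340964 (plus), chr6:52129222-52129251 (minus) and chr2:136598198-136598227 (minus). GGACT occurred once in the MCM3 site, within its central 250 bases, and was not found in the other sites. Of 1208 listed sites, 12.2% held it in their central 250 bases on the strand of the gene. TTTTT was also searched. It started at 7 positions in the MCM3 site, all in the central 250 bases. In the MCM2 intron site it started at 2 positions, outside that window. The 3′UTR sites of MCM2 and MCM6 held 0, and 32.2% of the 1208 sites held it in the window.
MCM2 intron: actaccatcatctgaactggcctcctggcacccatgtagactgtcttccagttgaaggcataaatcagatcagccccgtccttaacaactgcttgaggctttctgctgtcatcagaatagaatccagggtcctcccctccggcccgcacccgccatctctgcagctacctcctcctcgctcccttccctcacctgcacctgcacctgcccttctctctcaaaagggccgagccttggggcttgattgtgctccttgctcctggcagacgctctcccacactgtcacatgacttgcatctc
MCM2 3′UTR: gttagccttcttacatggatgtcaggagag
MCM3 3′UTR: gaagctgagttcaGGACTcggtggaccctt
MCM6 3′UTR: taccaacacaggcttcagcacttcctttgg

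**Figure D4:**
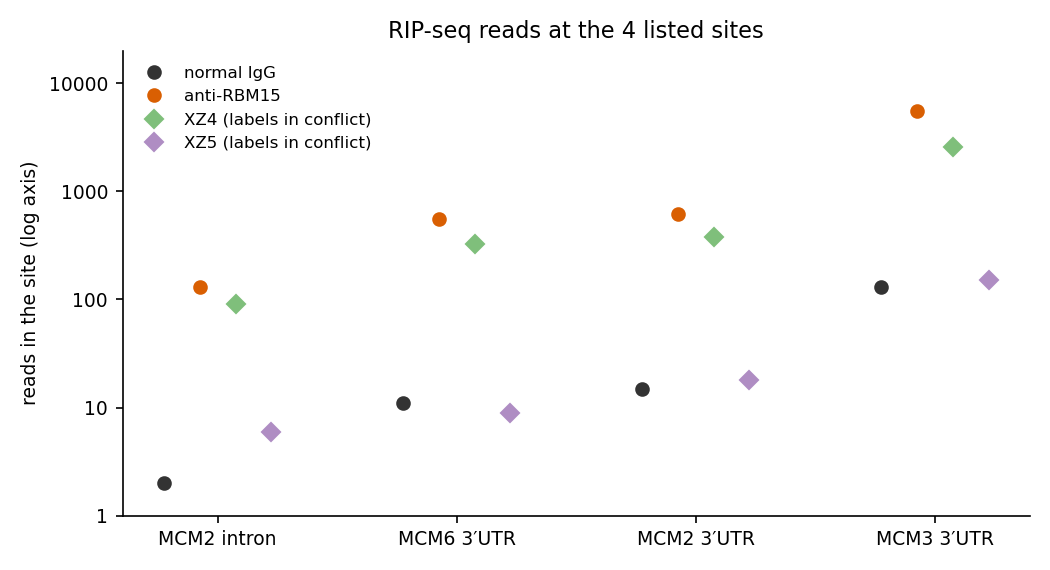
Reads, on a log axis, in the 4 listed sites of the members for the normal IgG and anti-RBM15 libraries (circles) and for 2 libraries whose labels conflict (diamonds). At every site the anti-RBM15 library is the highest, from 131 reads in the MCM2 intron to 5501 in MCM3. Sites were listed for more reads on the RBM15 side, so a count above normal IgG follows from the filter. Summed over all 1515 listed sites, the anti-RBM15 library was also the highest, with 807871 reads.

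The other genes of licensing and replication were taken as lists. Of 22 other licensing and origin firing genes, 0 were called at 0.01 or 0.05 (1 at an unadjusted p under 0.05, edgeR, a limit that 18.8% of all genes passed), and 13 were higher and 9 lower. The balance turned with the scaling, from 18 higher and 4 lower under upper-quartile factors to 9 higher and 13 lower with a minimum summed count of 1. These settings moved the median of all genes to 0.206 and 0.435. Below that median lay 9 of 22 in the main fit, 9 under upper-quartile factors and 22 with a minimum of 1. Their median log2 fold change was 0.12, beside 0.017 for all genes. The largest differences were in ORC3, another subunit of the origin recognition complex, at 117, 72.8 and 85.4 CPM (log2 fold change -0.56 ± 0.23, SE), and GINS4, a subunit of the active helicase, at 18.3, 22.3 and 27.7 CPM (0.45 ± 0.28, SE). Neither passed.

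Of 26 replication fork genes, 0 were called at 0.01 or 0.05 (8 at an unadjusted p under 0.05, edgeR, beside 18.8% of all genes), and 18 were lower and 8 higher. The count of lower genes was 11 under upper-quartile factors, where the median of all genes was 0.206, and 13 with a minimum summed count of 300. Below the median of all genes lay 18 of 26, both in the main fit and under upper-quartile factors. With a minimum of 300 it was 13, and with a minimum of 1 it was 25. PRIM1, the primase subunit that makes the RNA primer, had 51.2, 20.2 and 28.2 CPM, a log2 fold change of -1.08 ± 0.27 (SE, adjusted p = 0.1, edgeR). FEN1, which trims the flaps of lagging-strand fragments and binds PCNA, had 82.7, 134 and 149 CPM, a log2 fold change of 0.78 ± 0.23 (SE, adjusted p = 0.142, edgeR). Thus genes of the fork also lay on both sides of the control. Of this list POLA1, RPA1 and DNMT1 had a listed RIP-seq site, with log2 fold changes of 0.05, -0.13 and -0.19.

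Of 9 nucleotide supply genes, 0 were called at 0.01 or 0.05 (3 at an unadjusted p under 0.05, edgeR, beside 18.8% of all genes). TYMS, which makes thymidylate, had 37.5, 20.6 and 21.1 CPM, a log2 fold change of -0.85 ± 0.25 (SE, adjusted p = 0.138, edgeR). RRM2, the regulated subunit of ribonucleotide reductase, had 68.0, 118 and 98.9 CPM, a log2 fold change of 0.68 ± 0.24 (SE, adjusted p = 0.195, edgeR). Its partner RRM1 had 150, 166 and 181 CPM and, like DUT, which clears dUTP, a listed RIP-seq site.

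Among 21 genes of E2F and G1/S control, 0 were called at 0.01 or 0.05. At an unadjusted p under 0.05 there were 2 (edgeR), beside 18.8% of all genes. In this list 9 were higher and 12 lower. The balance turned to 15 higher and 6 lower under upper-quartile factors, and to 12 higher and 9 lower with a minimum summed count of 300. Upper-quartile factors moved the median of all genes to 0.206. Below the median of all genes lay 12 of 21 in the main fit, 12 under upper-quartile factors and 9 with a minimum of 300. TFDP1, the partner of E2F factors on DNA, had 54.3, 104 and 92.7 CPM, a log2 fold change of 0.86 ± 0.24 (SE, adjusted p = 0.121, edgeR). RBL2, the pocket protein p130 that represses E2F targets in resting cells, had 131, 72.7 and 85.3 CPM, a log2 fold change of -0.73 ± 0.23 (SE, adjusted p = 0.152, edgeR). Of 7 CDK inhibitors, 0 were called at 0.01 or 0.05 (2 at an unadjusted p under 0.05, edgeR, beside 18.8% of all genes). CDKN1A, the inhibitor p21, had 6.10 CPM in control, 8.58 in shRBM15#1 and 26.6 in shRBM15#2, so the lines differed more from each other than shRBM15#1 did from the control. CDKN2D, the inhibitor p19, had 15.2, 4.29 and 10.0 CPM, again with unequal lines.

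Of 7 genes of licensing and S-phase proteolysis, which set how long CDT1 and other factors last, 0 were called at 0.01 or 0.05. At an unadjusted p under 0.05 there were 0 (edgeR), beside 18.8% of all genes. SKP2, a receptor subunit of a ubiquitin ligase for CDT1, had 20.2, 28.6 and 26.9 CPM, a log2 fold change of 0.46 ± 0.27 (SE). DDB1, the adaptor of the CUL4 ligase that destroys CDT1 on PCNA, had 769, 918 and 922 CPM, a log2 fold change of 0.26 ± 0.22 (SE). DDB1, CUL4A and FBXO5 each had a listed site, and the 3′UTR site of DDB1 held 2447 reads against 40 in normal IgG. RNA levels give no reading of the stability of the CDT1 protein.

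Mitosis genes, which follow the members in the cell cycle, were lower in 17 of 17 cases, with a median log2 fold change of -0.38, and 0 were called at 0.01 or 0.05 (6 at an unadjusted p under 0.05, edgeR, beside 18.8% of all genes). Both lines lay below the control in 13 of the 17, beside 39.5% of all genes. The count of lower genes was 12 under upper-quartile factors, 13 with a minimum summed count of 300 and 12 with the trend of fold change removed. Upper-quartile factors moved the median of all genes to 0.206, and 17 of 17 lay below it, as in the main fit. Below the median of all genes were 13 with a minimum of 300 and 12 with the trend removed. TOP2A, the topoisomerase that untangles sister chromatids, had 1027, 620 and 625 CPM, a log2 fold change of -0.72 ± 0.21 (SE, adjusted p = 0.139, edgeR). CCNB2, a mitotic cyclin, had 142, 92.8 and 90.9 CPM, a log2 fold change of -0.63 ± 0.22 (SE, adjusted p = 0.181, edgeR). TOP2A, BIRC5 and CENPE had listed RIP-seq sites. The summed level of the list was 3689 CPM in control and 2863 and 2797 CPM in the lines.

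Histone RNA was set beside the members as the other S-phase reading. Of 52 replication-dependent histone genes tested, 50 were lower and 2 higher, with a median log2 fold change of -0.88, 1 was called at 0.01 (beside 0.346% of all genes) and 7 at 0.05 (beside 1.74%). Their summed level was 4836 CPM in control and 2619 and 2716 CPM in the lines, while that of the 10 members was 1741, 1810 and 1915 CPM. The summed histone level was thus lower in both lines and the summed level of the members was not, and this difference was not tested. H3C8 had 63.7, 15.9 and 13.5 CPM, a log2 fold change of -2.12 ± 0.25 (SE, adjusted p = 0.00674, edgeR), and H2BC14 had 2.32, 0.424 and 0.958 CPM. HIST1H4B, the histone gene with a listed RIP-seq site, had 103, 63.4 and 59.3 CPM. Histone genes are short and near-identical in sequence, and with the trend of fold change with length, GC content and expression removed their median was 0.04 and 22 of 52 were lower, while the median of the members was 0.11. Of 8 histone supply genes, 0 were called at 0.01 or 0.05 (1 at an unadjusted p under 0.05, edgeR, beside 18.8% of all genes). CASP8AP2, needed for histone gene expression, had 52.2, 28.0 and 34.6 CPM, and NPAT, the cyclin E substrate that activates histone genes, had 41.6, 57.1 and 56.2 CPM.

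**Figure D5:**
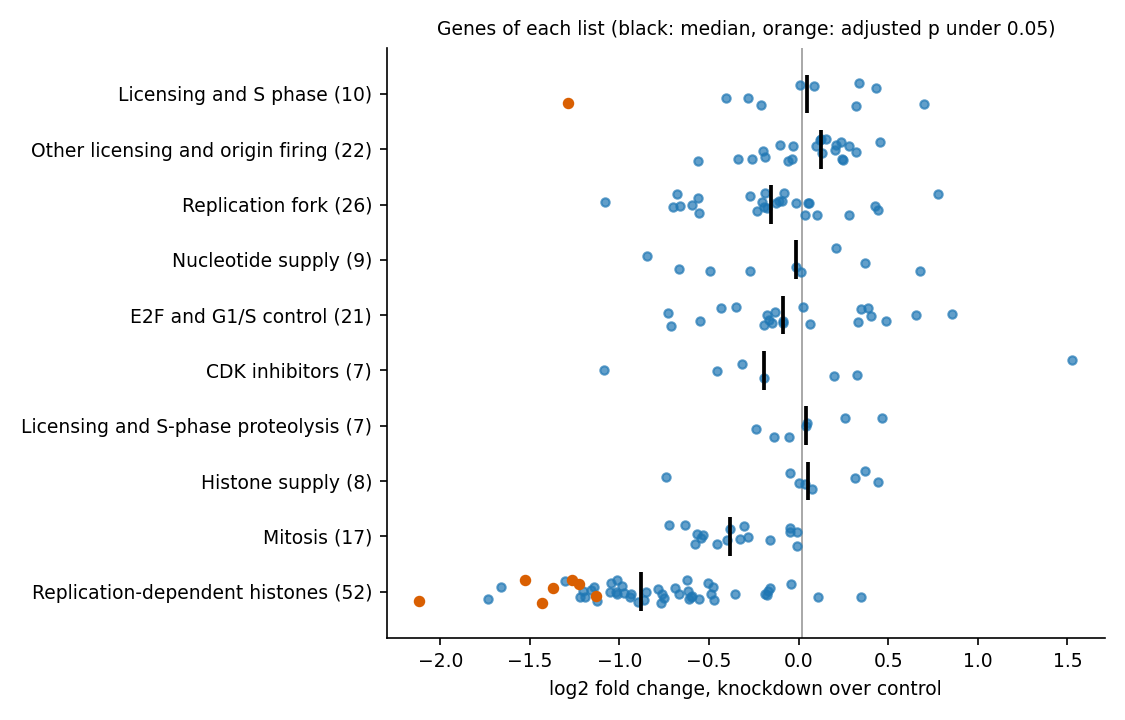
Log2 fold change, knockdown over control, of each tested gene by list, with the number of genes tested in parentheses, the list median as a black line and genes with an adjusted p under 0.05 in orange. The grey line is the median of all genes, 0.017. CDT1 is the only orange point outside the histones.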

How the data were processed

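RNA-seq was available for 1 control library and 2 RBM15 knockdown lines, and RIP-seq for 4 libraries. Alignment of the paired-end RNA-seq reads, which carry no strand, was done by the authors with STAR on GRCh37. What the authors deposited is the raw count of reads on each exon bin of Ensembl gene models, in 1 file for each library. They also deposited a DEXSeq table, of which the bin positions were used. For RIP-seq the authors trimmed the reads, aligned them with STAR to hg19, called peaks from coverage over all samples, tested them with DESeq and deposited raw read counts for the 1515 peaks that passed. The fold changes, p-values and FDR in these tables are the authors' own comparisons and were not used. The submitters' processing notes also name CASAVA 1.8.4, Picard 1.126, HTSeq 0.6.0, bedtools 2.17.0 and R 3.1.1, with no role given.

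Bin counts were summed per gene and tested with edgeR 4.0.16 in R 4.3.3 (TMM, quasi-likelihood test, summed count of at least 30, Benjamini-Hochberg over all genes tested, called at an adjusted p under 0.01). The standard error was taken from the F statistic, and the fold of a single line was computed with a prior count of 2. The limits for exon usage are those the study states, and lines that name no gene were left out. For exon usage, diffSpliceDGE (edgeR) was run on genes that had 2 or more bins whose counts summed to 30 or more. The trend of fold change with length, GC content and expression was fitted with mgcv 1.9.3. DESeq2 1.42.0, other scalings, filters and limits were tried as alternatives, and both fits were tested on simulated data. Symbols came from a GENCODE annotation lifted to GRCh37, by identifier or by 90% reciprocal overlap of spans. RIP-seq sites were matched by symbol. For 2 RIP-seq libraries the antibody in the labels and the side in the authors' comparison conflict, so they enter no comparison.

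The genes and lists were chosen with earlier results of these data known. The text names the 10 members, RBM15, the exon bin with the smallest p in each member and, of every other list, the 2 genes with the largest absolute log2 fold change, each gene called and each with a listed site. Marker lists are given as sums, with 3 megakaryocyte genes named after their values were seen.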

Additional observations from a re-analysis of the deposited data

Results flagged for a closer look

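Reads at the sites of the members were also present in the 2 RIP-seq libraries that enter no comparison, above the level in the normal IgG library except for XZ5 at the MCM6 site. Library XZ4, labelled normal immunoglobulin but grouped by the authors with the RBM15 side, held 90 reads in the MCM2 intron, 375 in the MCM2 3′UTR, 2581 in MCM3 and 328 in MCM6, where normal IgG held 2, 15, 130 and 11. Library XZ5, labelled anti-RBM15 but set on the control side, held 6, 18 and 152 reads in the MCM2 intron, the MCM2 3′UTR and MCM3, and 9 in MCM6. The list was filtered on the authors' comparison, which sets XZ4 on the RBM15 side, so a high count of XZ4 at listed sites follows from the filter. Which label is right was not tested, and the depth of these libraries is unknown.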

How the results depend on the processing

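No paired analysis was possible because the single control library carries no number that pairs it with a knockdown line. At an adjusted p under 0.01, CDT1 was called by DESeq2 (1 member) and with a minimum summed count of 1 (1 member), and 1 member passed at an adjusted p under 0.05. The count stayed at 0 under size factors, upper-quartile factors and a minimum of 300. The adjusted p of CDT1 ranged from 0.00129 to 0.0605 over these alternatives. All genes called numbered 86, against 539 by DESeq2, where 9168 genes had no adjusted p, 191 under size factors, 335 under upper-quartile factors, 801 with a minimum of 1, 432 at an adjusted p under 0.05, and 0 with a minimum of 300 (edgeR, 2938 at an unadjusted p under 0.05). The median log2 fold change of the members, 0.04, was 0.0486 by DESeq2 and under size factors, 0.24 under upper-quartile factors, -0.0879 with a minimum of 1, 0.19 with a minimum of 300, 0.0637 over exon bins and 0.11 with the trend removed, and 0.0437 to 0.0449 without either line. Upper-quartile factors moved the median of all genes to 0.206 and a minimum of 1 moved it to 0.435, and relative to these the members lay at 0.03 and -0.52. Directions reversed for MCM2 (-0.13) and CDC6 (-0.0489) with a minimum of 1, and for MCM2 without shRBM15#1, whose value for 1 line alone ran from -0.0046 to 0.0159. Member bins past the limits numbered 1 with a minimum of 300 and 0 at an adjusted p under 0.05, and both bins kept their direction without either line (2 to 2). Members with a site stayed at 3. The cause of these shifts was not tested.

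A single control and 2 lines limit every comparison, while the members had 962 to 32375 reads per library. The deposited RIP-seq list holds peaks that passed the authors' filter, so members without a site have no reads to compare.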
